A study of Mus musculus with 22 samples.

Results

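The response to loading of the wildtype ulna, a long bone of the forearm, was measured as the difference between the loaded right ulna and the non-loaded left ulna of the same mouse. Members were the libraries whose labels give wildtype, which made 7 mice and 14 of the 22 libraries, and the genes were all those of the deposited tables, of which 18793 of 25471 had enough counts to be tested. The groups were wildtype (WT) loaded and WT non-loaded, with 7 libraries each. The other 8 libraries came from 4 conditional knockout (CKO) mice of Tlr4, the receptor for bacterial lipopolysaccharide, with the same limbs, and were used for the shared estimate of spread and for 1 comparison of responses. The title of the series places Tlr4 in osteoblasts, the bone-forming cells, and its role in bone formation after loading. The labels give the tissue as the middle stretch of the ulna and give no age, sex, strain, loading regime, time of harvest or Cre driver. A change in these values therefore belongs to 1 unstated time after loading. The p-values of the main fit, edgeR on group means, measure the spread between libraries, with the pairing by mouse left out. Fits with the mouse as a block use the pairing.

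Bone adapts its mass to the strain it carries. Osteocytes, the cells buried in the matrix, sense strain and fluid flow and release prostaglandins and Wnt ligands. They also make sclerostin and Dkk1, which hold back Wnt signalling through the Lrp5 and Lrp6 receptors, and mouse bones that are loaded by force are known to make less sclerostin and to form new bone at the periosteum.

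The WT libraries held 22744319 to 42833729 counts. Bone genes were abundant: Col1a1, the main collagen of bone, lay between 1567 and 19550 CPM (counts per gene scaled to the library's TMM-adjusted size) over the 14 libraries, and the osteocyte genes Sost and Dmp1 between 244 and 726 CPM and between 122.7 and 427 CPM. Muscle was present as well. The skeletal muscle list took 10.6 ± 2.78% of counts in WT loaded and 10.7 ± 3.09% in WT non-loaded libraries (SD, n = 7 each). The mean limb difference was -0.068 ± 3.56 percentage points, which an exact two-sided sign-flip permutation test over 7 mice did not separate from 0 (p = 0.969). Within mice, however, the loaded limb held less muscle in mouse 694, by -5.32 points, and more in mouse 699, by 5.17 points. A marrow score, the mean log2 CPM of genes of red cells, neutrophils and the B lineage, differed in the opposite direction in these mice, by 1.19 in 694 and by -1.06 in 699 on the log2 scale. In milled bone, fewer cells of a type and less RNA per cell cannot be told apart. Of 6 such measures of the libraries the lowest p was that of the Rn7s RNA share, 12.8% in loaded and 13.7% in non-loaded libraries, lower in 6 of the 7 loaded limbs (exact p = 0.0312, adjusted p = 0.187 over the 6 measures).

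The library labelled WT loaded 686 stood apart. Ltbp2, a gene for a microfibril protein of the matrix, had 380 CPM there, against 26.5 to 73.5 CPM in the other 13 WT libraries, while the library labelled CKO loaded 688 had 38.4 CPM, against 205 to 344 CPM in the other CKO libraries. Over 83 immunoglobulin V genes, whose use differs from animal to animal, WT loaded 686 correlated with its own left limb at 0.392 and best, at 0.533, with CKO non-loaded 688. The library labelled CKO loaded 688 correlated with its own left limb at 0.308 and best, at 0.566, with WT non-loaded 686. All other loaded libraries correlated best with their own left limb except WT loaded 685, at 0.504 with its own and 0.631 with CKO non-loaded 693. Libraries are used as labelled. Values without mice 686 and 688 are given for Wnt1, for other genes of low p, for the lists described most fully and for the comparison with CKO mice. Tlr4 itself had 28.9 to 42.2 CPM in WT loaded and 24.9 to 39.4 CPM in WT non-loaded libraries (log2 fold change 0.04 ± 0.11, SE).

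**Figure D1:**
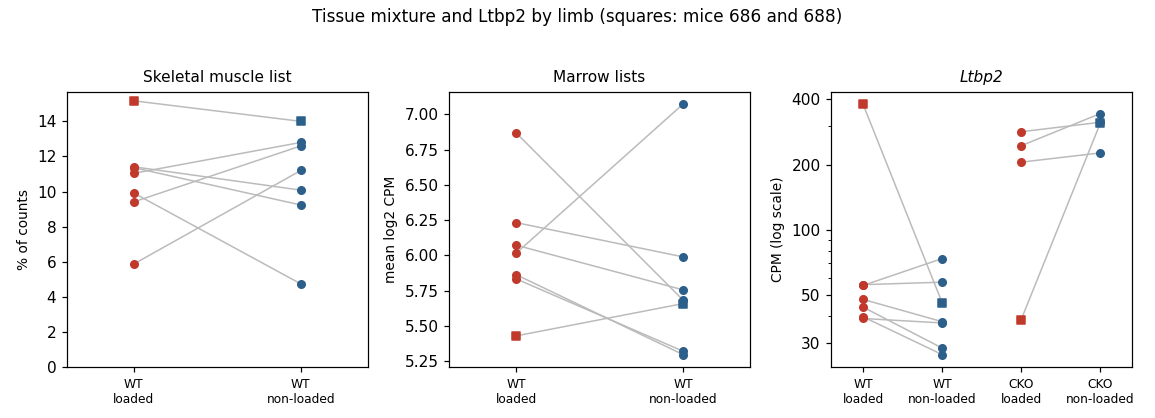
Share of counts on the skeletal muscle list (left, percent) and mean log2 CPM of the red cell, neutrophil and B cell lists (middle) in the loaded and non-loaded limbs of 7 WT mice, and Ltbp2 (right, CPM, log axis) in all 22 libraries; lines join the limbs of 1 mouse. The muscle share of mouse 694 was lower and that of mouse 699 higher in the loaded limb, and the loaded libraries of mice 686 and 688 hold the Ltbp2 level of the other genotype.

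Across the genome few genes separated the limbs. Of all 18793 genes tested 8962 had a log2 fold change above 0 and 9831 below. The edgeR quasi-likelihood fit called 1 gene higher at an adjusted p under 0.05, Wnt1 (0.00532% of the genes tested), and 0 lower. At an unadjusted p under 0.05 there were 229 genes higher (1.22%) and 210 lower (1.12%), 439 in all, against 939.6 that a uniform p would give. That count depended on the model and on mouse 699: it was 1353 without that mouse, 1437 with the mouse block and covariates for muscle and marrow, 3672 in limma voom with quality weights and 1829 in voom with the block. The same direction in every mouse was seen for 118 genes that were higher in 7 of 7 loaded limbs (0.628%) and 120 that were lower (0.639%). Chance alone also gives such genes in each direction, and how many was not worked out. A direction shared by 7 of 7 mice therefore does not mark a response by itself. In 11 genes (0.0585%) the loaded and the non-loaded libraries did not overlap at all. Among the higher of these were Wnt1, Ptgs2, Fosb, Gem, Fosl1, Wnt7b and the unnamed Gm37383, and lower were Slc25a14, Alg6 and 9030624G23Rik. Of these, Wnt1 and Wnt7b are secreted Wnt ligands, Ptgs2 makes prostaglandins, Fosb and Fosl1 are AP-1 subunits, and Gem is a small GTPase that restrains voltage-gated calcium channels. They are named after their values were seen. Among 18793 genes some would separate fully by chance, and how many was not worked out. Separate groups alone therefore do not mark a response.

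**Figure D2:**
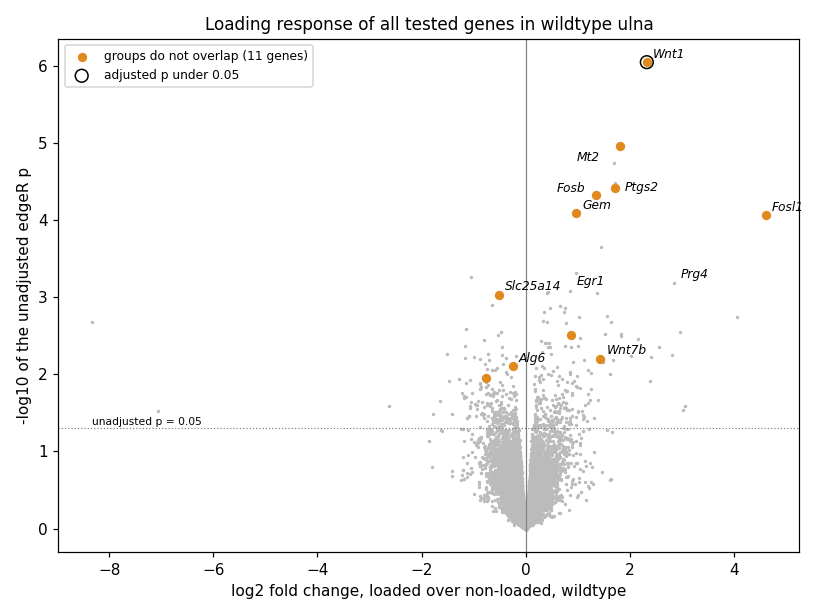
Log2 fold change, loaded over non-loaded in WT mice (x axis), against -log10 of the unadjusted edgeR p (y axis) for the 18793 genes tested; orange points are the 11 genes whose 2 groups of 7 libraries do not overlap and the ring marks the gene with an adjusted p under 0.05. The points with the lowest p lie on the higher side, with Wnt1 at 2.33 and Fosl1 at 4.61.

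Wnt1 rose in the loaded ulna. This ligand signals through Frizzled and Lrp5 or Lrp6, and mutations in it cause brittle bone in people. It had between 4.01 and 9.85 CPM (median 5.92) in the loaded limbs, and between 0.33 and 2.45 CPM (median 0.967) in the non-loaded limbs. Every loaded library lay above every non-loaded one, with the smallest limb difference in mice 686 and 687 (1.38 and 1.41 on the log2 scale) and the largest in mouse 694 (3.76). The log2 fold change was 2.33 ± 0.34, 5.02-fold (SE, edgeR adjusted p = 0.0169), 2.49 once the mouse was a block (adjusted p = 0.0445) and 2.59 without mice 686 and 688 (adjusted p = 0.0355). The size stayed between 2.13 and 2.75 in all 23 other settings, but the call was lost without mouse 685 (adjusted p = 0.168), 690 (0.253) or 692 (0.0996). It was also lost with only the WT libraries in the fit (0.0767, and 0.135 with the block) and with the block without mice 686 and 688 (0.0772).

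Wnt1 lies on chromosome 15 at 98789857 to 98793837 (plus strand, GRCm38), beside Wnt10b at 98770712 to 98778150 on the minus strand. Wnt10b, another ligand that favours bone formation, had 11.7 to 22.4 CPM (median 16.5) in loaded and 6.76 to 24 CPM (median 10.8) in non-loaded limbs, with full overlap, and its log2 fold change of 0.35 ± 0.24 did not pass (higher in 5 of 7 mice, adjusted p = 1). The 250 bases upstream of the Wnt1 start are shown because Wnt1 is the gene that passed the threshold. RefSeq (GRCm38.p6) places them at chr15:98789607-98789856, plus strand:
Wnt1: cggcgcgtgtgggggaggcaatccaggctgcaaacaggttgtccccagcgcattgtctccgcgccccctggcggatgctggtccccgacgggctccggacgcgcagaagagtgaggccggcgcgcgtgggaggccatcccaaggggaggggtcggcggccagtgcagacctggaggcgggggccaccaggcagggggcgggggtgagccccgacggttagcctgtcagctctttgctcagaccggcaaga
On neither strand does this window hold any of 5 motifs searched: the cyclic AMP response element (CRE) TGACGTCA, its half-site TGACG, which lies within the full site, the AP-1 site TGANTCA, the metal response element core TGCNCNC, and the CArG box of serum response factor. Of 27025 RefSeq promoter windows of the same length, 1.62% hold the CRE, 17.9% the half-site, 6.87% the AP-1 site, 43.8% the metal response element core and 1.4% the CArG box.

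Wnt7b was the other ligand with separate groups. It had 1.35 to 3.32 CPM (median 2.31) in loaded limbs, and 0.174 to 1.23 CPM (median 1.04) in non-loaded limbs, where the lowest value belonged to mouse 699. Its log2 fold change of 1.43 ± 0.47 missed the threshold (7 of 7 mice, adjusted p = 1). AU022754 overlaps its exons on the other strand, so that without a statement on stranded counting their reads cannot be told apart. Of the 12 ligands tested 3 lay above 0 and 9 below, with a median of -0.17, against a median of -0.008 over all genes tested. That median rested on single mice, at 0.09 without mouse 694 and -0.35 without mouse 699. Wnt16, at -0.49, and Wnt5a, at -0.39, were the lowest ligands by p among those below 0.

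In the edgeR fit no receptor, inhibitor or target gene of the Wnt pathway was called. Of 16 receptor genes 13 lay below 0 and 0 had an unadjusted p under 0.05; Lrp5 gave -0.18 and Lrp6 -0.05. Of 12 antagonist genes 11 lay below 0, as did 9831 of all 18793 genes tested. Among the 12, Dkk1 and Sost had an unadjusted p under 0.05 on the lower side, where 1.12% of all genes tested were. The median of the list lay between -0.33 and 0.01 when 1 mouse was left out. Its mean limb difference was above 0 in 2 mice, at 1.22 in mouse 699. Dkk1, a secreted blocker of Lrp5 and Lrp6, had 9.82 to 19.5 CPM (median 14) in loaded limbs, and 13.1 to 33.6 CPM (median 16.9) in non-loaded limbs. The groups overlapped, mouse 699 alone being higher in the loaded limb, and the log2 fold change of -0.51 ± 0.22 did not pass (adjusted p = 1, -0.26 without mouse 685). Sost, which encodes sclerostin, had 244 to 388 CPM (median 331) in loaded limbs, and 262 to 726 CPM (median 391) in non-loaded limbs. Mice 685 and 687 carried the largest limb differences and mice 692 and 699 went the other way, for a log2 fold change of -0.45 ± 0.21 (adjusted p = 1, -0.24 without mouse 685). Among 13 target genes, whose transcription Wnt signals raise, 6 lay above 0 and 7 below. Axin2, the feedback target most often read, gave -0.21 ± 0.22 and was higher in 2 of 7 mice. Nkd2, a feedback inhibitor, was lower in 7 of 7 loaded limbs, with 8.66 to 13.0 CPM in loaded and 8.70 to 18.8 CPM in non-loaded libraries (-0.38 ± 0.17, adjusted p = 1).

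**Figure D3:**
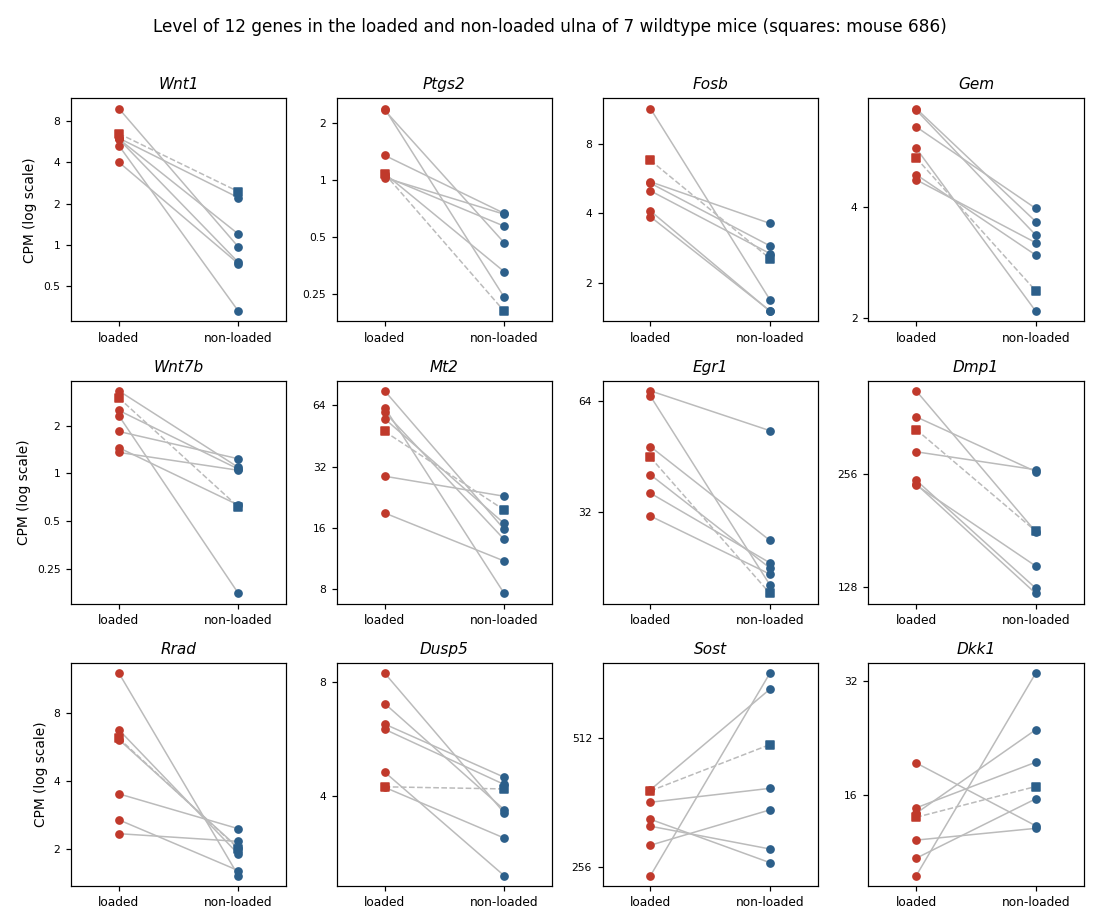
CPM (log axis) of 12 genes in the loaded (red, left) and non-loaded (blue, right) ulna of 7 WT mice; lines join the limbs of 1 mouse and squares with a dashed line mark mouse 686. Wnt1, Ptgs2, Fosb, Gem and Wnt7b show no overlap between limbs, Mt2, Egr1, Dmp1, Rrad and Dusp5 are higher in 7 of 7 loaded limbs with overlap between mice, and Sost and Dkk1 cross in 2 mice and in 1 mouse.

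Among the 20 tested growth and vascular factor genes, Pdgfa, a mitogen of mesenchymal cells, had 18.6 to 28.9 CPM in loaded and 12.5 to 22.6 CPM in non-loaded limbs (0.38 ± 0.17, 6 of 7 mice, edgeR unadjusted p under 0.05, adjusted p = 1).

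The immediate-early genes, which encode transcription factors and other regulators that a stimulus induces before new protein is made, lay mostly above 0. Of 26 tested members 23 were above 0 and 3 below, with a median of 0.24 that stayed between 0.19 and 0.32 in all other settings (0.22 without mice 686 and 688). At an unadjusted p under 0.05 there were 8 members higher, where 1.22% of all genes tested were, and 0 lower. In 7 of 7 mice 4 members were higher, where 0.628% of all genes tested were, and edgeR over all libraries called 0 members. Other fits called some: voom with quality weights Egr1, Fosb, Junb and Btg2, DESeq2 Fosb and Fosl1, and edgeR with the mouse block and covariates for muscle and marrow Fosl1 and Arc. The mean over the list was above 0 in 7 of 7 mice, between 0.07 in mouse 694 and 0.67 in mouse 690.

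Fosb, a subunit of the AP-1 factor, had 3.86 to 11.3 CPM (median 5.39) in loaded limbs, and 1.51 to 3.62 CPM (median 2.55) in non-loaded limbs. The groups were separate, and mouse 690 had the largest limb difference, 2.70. The log2 fold change was 1.36 ± 0.27 (edgeR adjusted p = 0.15; 1.35 and 0.9997 without mice 686 and 688). Fosl1, which encodes the AP-1 subunit Fra-1, was scarce in non-loaded bone: it had 12 to 149 counts (median 28) in loaded limbs, and 0 to 10 counts (median 0) in non-loaded limbs, 4 of which held 0 counts. Its fitted log2 fold change of 4.61 ± 0.95 rests on these low counts (adjusted p = 0.204). Egr1, a zinc finger factor, had 31.1 to 68.2 CPM (median 45.0) in loaded limbs, and 19.2 to 53.2 CPM (median 22.5) in non-loaded limbs. It was higher in 7 of 7 mice with overlap through the non-loaded limb of mouse 699, and gave 0.84 ± 0.22 (adjusted p = 1); without mouse 699 it gave 1.001 and was called (adjusted p = 0.0371). Arc, a cytoskeletal regulator first known from neurons, gave 0.69 ± 0.25 and was also higher in 7 of 7 mice. Fos was less regular than Fosb, with 16.3 to 57.8 CPM in loaded and 16.2 to 36.5 CPM in non-loaded limbs (0.35 ± 0.26, 4 of 7 mice), and Jun gave 0.15.

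**Figure D4:**
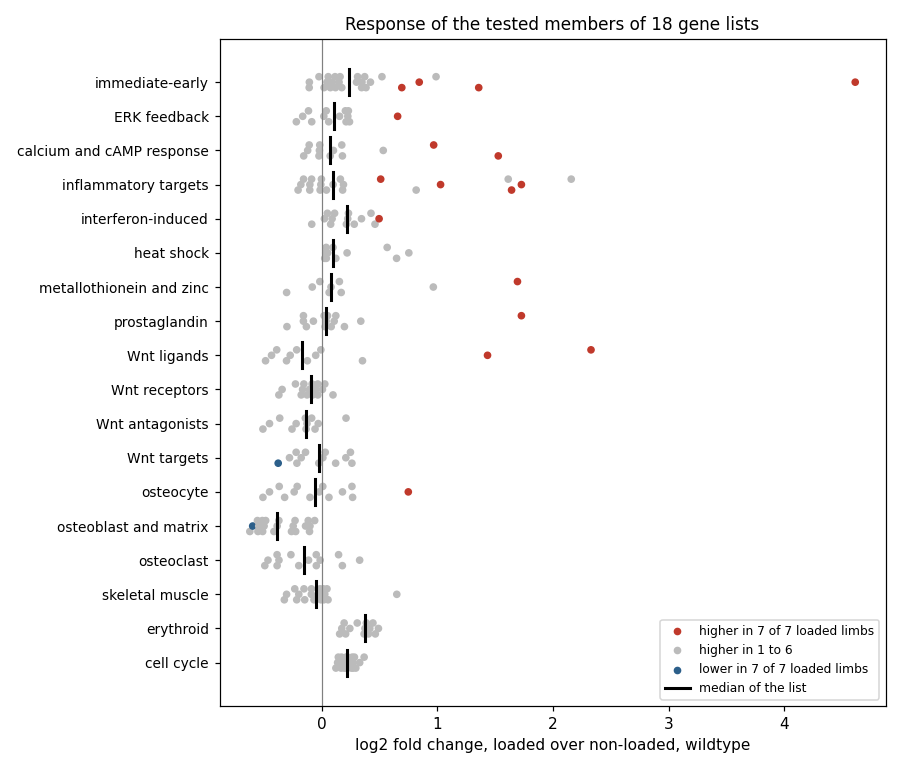
Log2 fold change, loaded over non-loaded in WT mice, of each tested member of 18 lists (points) with the list's median (black bar); red points were higher in 7 of 7 loaded limbs and blue points lower in 7 of 7. The immediate-early list has 23 of 26 members above 0, in the Wnt ligand list Wnt1 and Wnt7b stand apart from the rest, and the 21 osteoblast and matrix genes all lie below 0.

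Genes that answer calcium, cyclic AMP and growth factor signals had a few members with a low p. Gem had 4.75 to 7.41 CPM (median 5.78) in loaded limbs, and 2.09 to 3.97 CPM (median 3.20) in non-loaded limbs. The groups did not overlap and the limb difference was even across mice, 0.56 to 1.44 (0.97 ± 0.20, adjusted p = 0.204; 0.93 and 0.9997 without mice 686 and 688). Rrad, a GTPase of the same family, had 2.35 to 12 CPM (median 6.12) in loaded limbs, and 1.53 to 2.47 CPM (median 2.02) in non-loaded limbs. It was higher in 7 of 7 mice, by 2.9 in mouse 699 and by 0.1 in mouse 694 on the log2 scale, and gave 1.53 ± 0.45 (adjusted p = 1). Of the 13 genes in this list 7 lay above 0. On the higher side 3 had an unadjusted p under 0.05, where 1.22% of all genes tested were, and on the lower side 0. The third was Rcan1, an inhibitor of calcineurin (0.53 ± 0.25, 6 of 7 mice). In the list of 14 phosphatases and Sprouty proteins that dampen ERK signalling 10 lay above 0. Of these 2, Dusp5 and Dusp6, had an unadjusted p under 0.05, where 1.22% of all genes tested were on the higher side. Dusp5, a nuclear ERK phosphatase, had 4.22 to 8.44 CPM (median 6.01) in loaded limbs, and 2.47 to 4.49 CPM (median 3.69) in non-loaded limbs. It was higher in 7 of 7 mice with overlap, by 0.02 in mouse 686 and by 1.21 in mouse 699, and gave 0.66 ± 0.18 (adjusted p = 1). Its upstream window, at chr19:53528895-53529144 (plus strand, GRCm38.p6), is shown because it holds 2 adjacent CArG boxes, in capitals with 1 CRE half-site and 1 metal response element core:
Dusp5: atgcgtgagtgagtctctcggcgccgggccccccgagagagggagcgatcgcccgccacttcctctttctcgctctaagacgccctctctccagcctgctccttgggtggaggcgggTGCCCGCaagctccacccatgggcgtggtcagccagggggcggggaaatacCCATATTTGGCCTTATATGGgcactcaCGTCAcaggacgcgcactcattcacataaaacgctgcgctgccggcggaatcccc
The CArG boxes begin 82 and 72 bases before the start and the half-site 55 bases before it; 0.0185% of all such windows hold 2 or more CArG boxes. AC137853.2 overlaps the exons of Dusp5 on the other strand.

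Among prostaglandin and inflammatory genes a few members had a low p. Ptgs2, the inducible cyclooxygenase COX-2, had 1.03 to 2.38 CPM (median 1.08) in loaded limbs, and 0.204 to 0.669 CPM (median 0.468) in non-loaded limbs. The groups did not overlap, with mice 687 and 690 the highest in the loaded limb, and the log2 fold change was 1.73 ± 0.33 (edgeR adjusted p = 0.143; 1.65 and 0.7705 without mice 686 and 688). Ptgs2 was the sole member of 15 prostaglandin genes with an unadjusted p under 0.05. The synthase gene Ptges gave -0.07 and the receptor genes Ptger2 and Ptger4 gave 0.11 and 0.08. In the list of 21 tested inflammatory targets 12 lay above 0 and 9 below, with a median of 0.10. On the higher side 5 members had an unadjusted p under 0.05, where 1.22% of all genes tested were, and on the lower side 0. In 7 of 7 mice 4 members were higher, where 0.628% of all genes tested were. Beside Ptgs2 these were the chemokine genes Ccl2 (1.64 ± 0.47) and Cxcl10 (1.03 ± 0.52) and Socs3, a feedback inhibitor of cytokine receptors. Ccl2 was scarce, with 12 to 110 counts in loaded and 5 to 24 counts in non-loaded libraries. Socs3 had 23.6 to 40.7 CPM in loaded and 17.0 to 27.3 CPM in non-loaded limbs, with overlap (0.51 ± 0.23, adjusted p = 1). Il1b gave -0.10, Tnf 0.04 and Nfkbia -0.01, and Il6, with 1 to 12 counts in loaded and 1 to 9 counts in non-loaded libraries, was not tested. Of the interferon-induced genes 13 of 14 lay above 0. Of these 2, Mx2 (0.50 ± 0.18) and Ifi44 (0.43 ± 0.20), had an unadjusted p under 0.05, where 1.22% of all genes tested were on the higher side. The median of this list was 0.22, and 0.05 to 0.37 when 1 mouse was left out. Its mean limb difference was above 0 in 5 of 7 mice, from -0.48 in mouse 699 to 0.74 in mouse 694.

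Mt2 encodes a metallothionein, a small protein that binds zinc and copper. It had 18.9 to 75.5 CPM (median 55.1) in loaded limbs, and 7.59 to 22.9 CPM (median 15.7) in non-loaded limbs. Every mouse was higher in the loaded limb, least in mouse 692 (0.33) and most in mouse 699 (3.03), and the groups overlapped through the loaded limb of mouse 694. Its log2 fold change of 1.69 ± 0.31 missed the threshold (adjusted p = 0.114; 1.77 and 0.702 without mice 686 and 688), while 5 of the 23 other settings called it. Mt1, its neighbour on chromosome 8, had 30.2 to 102 CPM (median 66.5) in loaded limbs, and 21.0 to 43.7 CPM (median 31.6) in non-loaded limbs (0.97 ± 0.23, 6 of 7 mice, adjusted p = 0.904). The limb differences of Mt1 and Mt2 were both low in mice 692 and 694 and both highest in mouse 699. The other 7 members of the list, zinc transporters, Mt3 and the metal-sensing factor Mtf1, lay between -0.30 and 0.17. Gm45774 overlaps the exons of Mt2 on the other strand. The upstream windows of the pair are shown side by side, with metal response element cores, the AP-1 site and the CRE half-site in capitals (RefSeq, GRCm38.p6, plus strand, chr8:94172368-94172617 for Mt2 and chr8:94178839-94179088 for Mt1):
Mt2: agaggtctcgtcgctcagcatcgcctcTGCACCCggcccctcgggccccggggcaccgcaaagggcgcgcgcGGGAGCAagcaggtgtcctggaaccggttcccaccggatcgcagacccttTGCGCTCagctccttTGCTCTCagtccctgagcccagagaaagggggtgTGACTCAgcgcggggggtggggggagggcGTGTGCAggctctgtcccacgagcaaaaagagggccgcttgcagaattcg
Mt1: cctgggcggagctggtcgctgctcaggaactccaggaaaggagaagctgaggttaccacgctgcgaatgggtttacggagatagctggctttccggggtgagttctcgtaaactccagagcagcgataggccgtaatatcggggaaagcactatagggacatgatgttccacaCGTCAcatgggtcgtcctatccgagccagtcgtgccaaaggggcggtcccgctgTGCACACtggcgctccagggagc
The Mt2 window holds 5 metal response element cores, beginning 223, 178, 128, 113 and 50 bases before the start, and 1 AP-1 site at 79; 0.311% of all windows hold 5 or more cores. The Mt1 window holds 1 core, at 23, and 1 CRE half-site, at 77. The 2 windows are placed unlike each other. GENCODE puts the gene start of Mt2 at 94172664, past the end of its window, and that of Mt1 at 94179082, inside its window. Bases outside the windows were not searched, so the numbers of cores do not compare the whole promoters. These matches are letters in a window and not measured binding.

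Among osteocyte genes Dmp1 stood above 0, while the osteoblast and matrix genes lay below it. Dmp1, a phosphoprotein that osteocytes place in newly mineralising matrix, had 239 to 427 CPM (median 293) in loaded limbs, and 122.7 to 263 CPM (median 179) in non-loaded limbs. It was higher in 7 of 7 mice, least in mouse 685 (0.2 on the log2 scale), and overlapped only because the non-loaded limbs of mice 685 and 687 exceeded the lowest loaded limbs. The log2 fold change of 0.75 ± 0.20 did not pass (adjusted p = 1, and 0.201 in the blocked fit). Other osteocyte genes went both ways. Mepe gave -0.37, Fgf23 -0.32 and Phex -0.24, though Phex was higher in 5 of 7 mice. Cd44 gave 0.26, Pdpn 0.27 and Tnfrsf11b 0.18, and 6 of 14 members lay above 0. Every one of the 21 osteoblast and matrix genes tested had a log2 fold change below 0. Within mice they were less uniform: Sp7, Ibsp, Spp1 and Phospho1 were higher in 4 of 7 loaded limbs. The median of the 21 genes was -0.39, with -0.43 when mice 686 and 688 were left out and -0.46 to -0.12 over all settings. Of the 21 genes 2 had an unadjusted p under 0.05, Bmp3 (-0.51 ± 0.23) and the osteoblast membrane protein gene Tmem119 (-0.51 ± 0.23). On the lower side 1.12% of all genes tested had such a p. In this list edgeR called 0. Osteocalcin, Bglap, was lower in 7 of 7 loaded limbs and varied more between mice than between limbs. It had 24.2 to 291 CPM (median 109) in loaded limbs, and 46.5 to 510 CPM (median 129) in non-loaded limbs (-0.60 ± 0.56, adjusted p = 1). Col1a1 followed, with 1567 to 12060 CPM in loaded and 2543 to 19550 CPM in non-loaded limbs and a lower loaded limb in 6 of 7 mice (-0.54 ± 0.50). With the mouse as a block Bglap gave -0.56 (unadjusted p = 0.0184) and Col1a1 -0.47 (unadjusted p = 0.046), both at an edgeR adjusted p of 0.999. The mean over the list by mouse ran from -0.68 in mouse 685 to 0.06 in mouse 699, and was above 0 in 690 and 699. With muscle and marrow scores as covariates the median of the list was -0.18, and -0.20 with the block as well, while that of the immediate-early list was 0.26 and 0.28. Bmp2, a bone morphogenetic protein, had 20.2 to 32 CPM in loaded and 12.4 to 22.9 CPM in non-loaded limbs (0.45 ± 0.14, 6 of 7 mice, adjusted p = 1). Of 14 osteoclast genes 11 lay below 0 with 0 at an unadjusted p under 0.05, and Tnfsf11, the ligand RANKL that drives osteoclast formation, gave 0.17 ± 0.21. Piezo1, a mechanically gated cation channel gene, gave 0.23 ± 0.09 and was the sole member of 15 mechanosensor genes with an unadjusted p under 0.05.

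The 20 genes of lowest p on the higher side, among those of 1 CPM or more, held further kinds. Phlda1 (0.42 ± 0.11), the histone methyltransferase gene Dot1l (0.42 ± 0.11), the fibronectin receptor subunit gene Itga5 (0.47 ± 0.13) and the tRNA methyltransferase gene Trmt61a (0.36 ± 0.10) had small differences, with 6 or 7 mice higher. So did Nle1, a ribosome assembly gene (0.34 ± 0.10), Oaf (0.40 ± 0.11) and Srxn1, which repairs oxidised peroxiredoxins (0.78 ± 0.22). In the main edgeR fit all 7 stood at adjusted p = 1. Voom with quality weights called Phlda1, Dot1l, Itga5 and Nle1, and edgeR with the mouse block and covariates called Srxn1. In the remaining ones single libraries set much of the size. Prg4, which encodes the joint lubricant lubricin, had 287 CPM in loaded 687 against 6.74 to 28.8 CPM in the other loaded and 3.20 to 15.7 CPM in the non-loaded limbs, and its 2.86 ± 0.71 came down to 1.27 without mouse 687, with 6 of 7 mice higher. Htra4, a serine protease gene, was also highest there (24.6 CPM), and gave 1.84 with and 0.84 without that mouse. DESeq2 called Prg4 and not Htra4. Cytl1, a cartilage cytokine gene singled out after its values were seen, had 4624 counts in loaded 687, against a median of 156 counts over the loaded and 111 counts over the non-loaded limbs. Ankrd1, a stretch-induced muscle and fibroblast gene, had 121 CPM in loaded 699 and 5.21 to 41.5 CPM in the other loaded limbs, against 5.64 to 14.2 CPM in non-loaded limbs (1.83 ± 0.55, 0.83 without mouse 699). The cartilage list, of which 6 members were tested, had its largest mean limb difference in mouse 687 (1.41) and the muscle list in mouse 699 (1.10), and their part in these values was not tested.

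On the lower side differences were small, and edgeR over all libraries called 0 genes, DESeq2 1 and voom with quality weights 4, among them Fam161a. Slc25a14, a mitochondrial carrier gene, had 1.11 to 1.47 CPM (median 1.29) in loaded limbs, and 1.62 to 2.53 CPM (median 1.79) in non-loaded limbs. The groups did not overlap (-0.51 ± 0.13, adjusted p = 1). Alg6, a glucosyltransferase of N-glycan assembly, was also separate, with 7.49 to 9.28 CPM in loaded and 9.43 to 11.2 CPM in non-loaded limbs (-0.25 ± 0.08). Of the 12 lowest by p, 3 encode proteins of the primary cilium or its transport, grouped after their values were seen. The share of such genes among all genes tested was not counted. Of 14 Ift genes 0 and of 8 Bbs genes 1, Bbs2 itself, had an unadjusted p under 0.05 on the lower side. The 3 were Bbs2 (-0.47 ± 0.14), a subunit of the BBSome, Hspb11 (-0.46 ± 0.14), a subunit of the intraflagellar transport particle, and Fam161a (-0.52 ± 0.16). Each was lower in 6 of 7 loaded limbs. The others were Gpsm1 (-0.45), the kinesin light chain gene Klc4 (-0.19), Zfp963 (-0.37), Galnt5 (-0.70), Gprasp2 (-0.55), the liprin gene Ppfia2 (-0.75) and the sperm channel gene Catsperg1 (-0.60), all at adjusted p = 1. Klc4, Zfp963, Ppfia2 and Catsperg1 were lower in 7 of 7 loaded limbs.

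**Figure D5:**
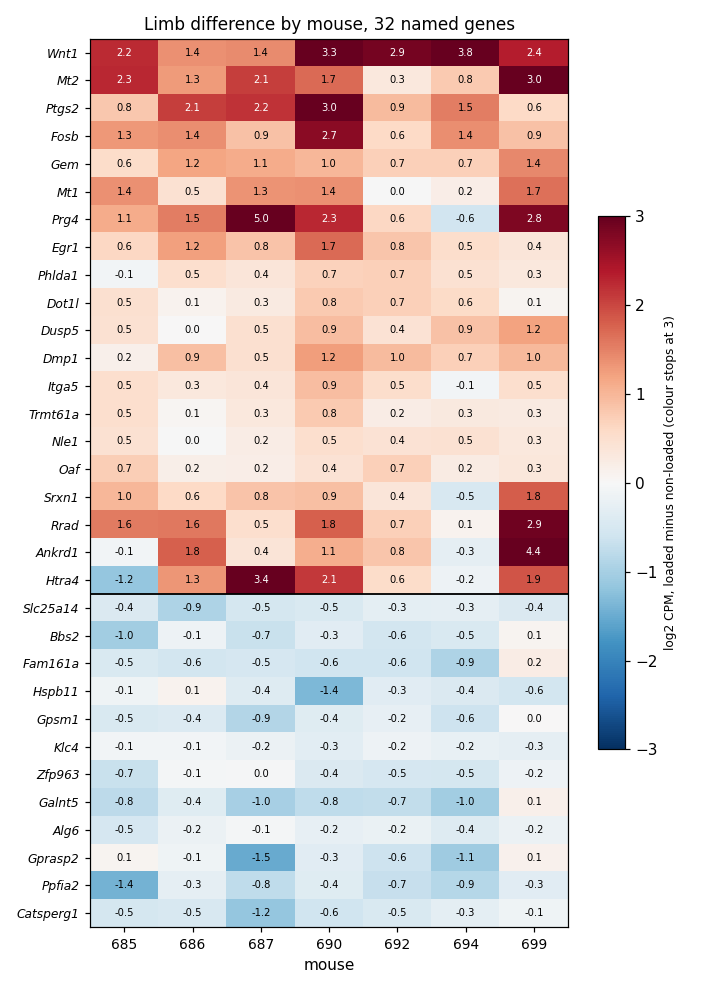
Log2 CPM of the loaded minus the non-loaded limb in each of 7 WT mice (columns) for 20 named genes above 0 and 12 below 0, by p within each block; the colour stops at 3 in either direction. Wnt1 is positive in every mouse, between 1.38 and 3.76, while Prg4 and Ankrd1 reach 5.0 in mouse 687 and 4.4 in mouse 699 and lie below 0 in mouse 694.

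The cell cycle list and several lists of other cell types lay on one side of 0 without any member at an unadjusted p under 0.05. All 24 cell cycle genes (median 0.22), 14 of 14 red cell genes (median 0.37) and 11 of 11 megakaryocyte genes (median 0.15) lay above 0, and all 11 adipocyte genes (median -0.23) and 10 Schwann cell genes (median -0.17) below. These medians rested on mice 685, 694 and 699. Without mouse 694 they were 0.02 for cell cycle, 0.10 for red cell, -0.02 for megakaryocyte, -0.23 for adipocyte and 0.05 for Schwann cell genes, and without mouse 699 they were 0.60, 0.87, 0.51, -0.50 and -0.40 in that order. Without mouse 685 the megakaryocyte median was -0.05 and the adipocyte median -0.08. By mouse the cell cycle and red cell means were negative in 686 and 699 and positive in the other 5, and in mouse 699 the marrow score was lower in the loaded limb. The summed level of the red cell list ran from 896 to 3924 CPM in loaded and from 596 to 3362 CPM in non-loaded libraries. Of 20 muscle genes 7 lay above 0 (median -0.05).

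With the muscle and marrow scores as covariates and the mouse as a block, edgeR called 19 genes in place of 1, of which 18 were higher. Dmp1 then had the smallest adjusted p (0.92 ± 0.09, adjusted p = 0.0022), and Wnt1 (2.55), Gem (1.01), Fosl1, Rrad (1.72), Mt2 (1.52) and Arc (0.91) were among the calls. Signals between cells were represented by Ccl2 (1.72), Bmp2 (0.60), Pdgfa (0.46) and Osmr (0.50), which encodes the receptor for oncostatin M. Osmr had 28.5 to 50.6 CPM in loaded and 19.8 to 40.0 CPM in non-loaded limbs. Among the rest were Srxn1, Pdk4, Syt12, Trdc and Gm13889 above 0 and Mtln below. In the main edgeR fit Pdk4 gave 0.15 (unadjusted p = 0.738, higher in 4 of 7 mice) and Syt12 0.33 (unadjusted p = 0.128, 5 of 7). Mtln gave -0.35 there (unadjusted p = 0.176, higher in 3 of 7), while Srxn1, Trdc and Gm13889 had an unadjusted p under 0.05. The covariates without the block called 3 genes, among them Mt2 and Wnt1. DESeq2 called 11 genes, 10 of them higher, and limma voom with quality weights 34, 30 of them higher. Wnt1, Mt2 and Gem were called by DESeq2, by voom with and without the block, and by edgeR with the block and covariates.

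The response of WT and CKO bones was compared to see where the WT response differs. In edgeR 0 genes passed for the difference of the responses, the smallest adjusted p being 0.697, and 488 had an unadjusted p under 0.05. DESeq2 and voom with quality weights also gave 0. Without mice 686 and 688 there were again 0, with 2213 genes at an unadjusted p under 0.05 and a smallest adjusted p of 0.367. The unadjusted count was 2717 without mouse 699, 224 without mouse 694 and 2886 in voom. Wnt1 gave 2.33 in WT and 3.13 in CKO, a difference of -0.80 ± 0.56, and of -0.77 without mice 686 and 688. Ptgs2 gave 1.73 and 1.75 in the same order, Mt2 1.69 and 1.74, and Gem 0.97 and 1.08. Fosb gave 1.36 in WT and 2.77 in CKO (difference -1.41 ± 0.45, unadjusted p = 0.00429, adjusted p = 0.697; -1.40 and 0.367 without mice 686 and 688). Mx2 was higher in 7 of 7 WT and in 0 of 4 CKO loaded limbs, at 0.50 in WT and -0.55 in CKO. The difference was 1.04 (edgeR unadjusted p = 0.00188, adjusted p = 0.697), and 1.11 without mice 686 and 688 (adjusted p = 0.367). Mx2 was scarce, with 1.17 to 2.08 CPM in WT loaded and 0.772 to 1.45 CPM in WT non-loaded limbs. GENCODE types it as a polymorphic pseudogene.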

How the data were processed

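Per the labels' protocols, bone pieces stored in RNAlater were pulverised in Trizol and libraries were prepared with a stranded kit from 4 ng of total RNA. Per the submitters' processing notes STAR and RSEM were used with GRCm38; tool versions, the annotation and whether strand was used in counting are not stated there. The deposited files hold estimated counts per gene, all whole numbers, so rounding changed 0 values. A symbol was found by identifier for 25428 of the 25471 genes. Positions and exon overlaps were read from GENCODE M21 and promoter windows from RefSeq (GRCm38.p6), which held 45 of the 63 genes looked up.

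The test was edgeR 4.0.16 (R 4.3.3, limma 3.58.1): filterByExpr, TMM, glmQLFit with robust=TRUE and glmQLFTest on 4 group means over 22 libraries, with 18 residual degrees of freedom and a biological coefficient of variation of 0.271. Benjamini-Hochberg adjustment ran over all 18793 genes, with calls under 0.05. SE is the log2 fold change over the square root of F. Log2 CPM had a prior count of 2. Shares and scores of libraries were tested by exact sign flips over 7 mice. The members and the 38 gene lists, described by counts and medians, were chosen with earlier results of these data known, as was leaving out mice 686 and 688. Named genes are those called, the 20 higher and 12 lower ones of smallest p at 1 CPM or more, up to 3 members a list with an unadjusted p under 0.05, and a fixed set; any others were chosen after their values were seen. Some results are not reported here.

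By the labels both limbs with a number belong to 1 mouse, which pairs the libraries. For mice 686 and 688 this is uncertain, as the loaded library of each correlated best with the left limb of the other. Unless left out they are paired as labelled, and counts over 7 WT mice include mouse 686. Deviations of paired limbs from their group means correlated at -0.256 to 0.289, with a median of 0.193 and 6 of 7 over 0.1; the block leaves 9 residual degrees of freedom. Libraries of a group always differed beyond sampling noise (chi-square per gene 28 to 396, 42 pairs). Alternatives were the block, covariates, other scalings and filters, WT libraries alone, no robust dispersion, DESeq2 1.42.0, limma voom, and leaving out mice. Scripts were tested on simulated data. With 22744319 to 42833729 counts a library, genes under 1 CPM rest on low counts.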

Additional observations from a re-analysis of the deposited data

Results flagged for a closer look

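In 9 of 122 groups of 7 libraries examined among the named genes, the highest or lowest library lay further from the rest than Dixon's limit allows, where chance flags about 1 in 20. Prg4 had 287 CPM in WT loaded 687 (group median 22.8), and Itga5 had 27.9 CPM in WT loaded 694 (46.0). 3 flags fell on the non-loaded limb of mouse 699: Egr1 at 53.2 CPM (22.5), Gpsm1 at 12 CPM (20.1) and Wnt7b at 0.174 CPM (1.04). Phlda1 had 22.9 CPM in WT loaded 690 (17.7). Mouse 686 held Bbs2 at 7.35 CPM (5.11) and Ltbp2 at 380 CPM (47.6) in the loaded limb, and Slc25a14 at 2.52 CPM (1.79) in the non-loaded limb.

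Among 61 named genes, most of them chosen for a low p in WT limbs, 3 differed one way in all 7 WT mice. They differed the other way in all 4 CKO mice. The share of such genes among all genes tested was not counted. Zfp963 and Catsperg1 were lower in WT and higher in CKO loaded limbs, with a WT minus CKO response of -0.5353 and -0.992 on the log2 scale, and Mx2 was higher in WT and lower in CKO, at 1.042. In the edgeR interaction fit each stood at adjusted p = 0.697. The counts of mice include 686 and 688, whose pairing of limbs is uncertain. Without both mice the difference was 1.113 for Mx2, and it is not given here for Zfp963 and Catsperg1.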

How the results depend on the processing

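The count of called genes, 1 in the main fit, moved with the model more than with scaling or filters, which kept it at 1. With the mouse as a replicate block it was 2, with the block in WT libraries alone 0, with the block and without mice 686 and 688 also 0, with the block plus muscle and marrow covariates 19, and with covariates but no block 3. DESeq2 called 11, limma voom with quality weights 34, and voom with the block 7. Leaving out 1 mouse at a time gave 0 to 2 calls: 0 without 685, 690 or 692, and 2 without 699. Without mouse 699 the number at an unadjusted p under 0.05 was 1353, against 439 with it. The cause was not tested. Of the values of named genes, 1358 kept their direction and side of the threshold, 37 newly passed, 6 no longer passed (all Wnt1) and 2 turned, both of Tlr4, which lay between -0.005245 and 0.0618 when a mouse was left out and at -0.003964 in the blocked fit without mice 686 and 688. The blocked fit changed no other call of a named gene. The muscle share difference lay between -0.9415 and 0.8077 percentage points when a mouse was left out. The difference of responses between genotypes had 0 calls in all 16 alternatives run. Low counts, as in Fosl1 and Ccl2, limit what this depth resolves.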

Other observations

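Some genes outside the lists or below 1 CPM, singled out after their values were seen, had a low unadjusted p and missed the adjusted threshold in the edgeR fit over all libraries. Some passed elsewhere: Has1 in DESeq2 and in voom with quality weights, Ihh, Stat3 and Dnah3 in voom, and Osmr in edgeR with the mouse block and covariates. Hmga2, a chromatin protein of growing tissue, had 15 to 51 counts in loaded and 5 to 18 counts in non-loaded limbs and was higher in all 7 mice, at 1.37 ± 0.36 on the log2 scale (SE; edgeR, adjusted p = 1). Ihh, a signal of cartilage and bone growth, had 3.09 to 4.94 CPM in loaded and 1.10 to 4.09 CPM in non-loaded limbs (0.75 ± 0.23, 7 of 7 mice, adjusted p = 1). Hbegf, a ligand of the EGF receptor, gave 1.05 ± 0.32 (6 of 7 mice, adjusted p = 1), and Has1, a hyaluronan synthase, 1.45 ± 0.33 (6 of 7 mice, adjusted p = 0.473), while Has2 gave -0.06. The receptor gene Osmr (0.46), the factor gene Stat3 (0.25, 7 of 7 mice) and Socs3 (0.51, 7 of 7 mice) belong to 1 cytokine pathway; of 8 genes of that pathway 6 lay above 0 and 2 below. The stress proteins Hspa1a (0.65) and Hspb1 (0.57) were among 11 of 11 heat shock genes above 0; Hspa1a and Hspa1b are near-identical copies and uncertain singly.

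Families chosen after their values were seen lay to one side with few single members at a low p. All 8 Bbs genes tested lay below 0 (median -0.15), as did 10 of 14 Ift genes (median -0.10) and 9 of 11 axonemal dynein heavy chain genes (median -0.27). Dnah3 was lower in 7 of 7 loaded limbs, with 10 to 26 counts in loaded and 12 to 72 counts in non-loaded libraries (-1.16 ± 0.38, adjusted p = 1), and Intu, a gene of cilium assembly, also in 7 of 7 (-0.68 ± 0.27, adjusted p = 1). Of 15 clock genes 12 lay below 0 (median -0.13), with Per3 at -0.42 ± 0.18. Of 64 histone genes 60 lay above 0 (median 0.12), and of 49 cytosolic ribosomal protein genes 47 below (median -0.06). In both families 0 members had an unadjusted p under 0.05. Of all 18793 genes tested 8962 lay above 0 and 9831 below. How the Bbs, Ift, dynein, histone and ribosomal counts rest on single mice was not examined.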
